A study of Rattus norvegicus with 18 samples.

Results

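DNA methylation was examined at 7 imprinted genes that are expressed from the paternal allele, namely Plagl1, Sfmbt2, Nap1l5, Inpp5f, Ddc, Dlk1 and Rasgrf1, in germ cells of fetal rats. A region belongs to a gene where the authors annotated it with a RefSeq transcript of that gene. By this rule 54 of the 61661 regions in 4 deposited tables belong to the 7 genes, out of 8243 genes with a symbol and a region. The tables list differentially methylated regions only, so stretches of these genes that did not differ are not seen.

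The cells came from transgenic Sprague-Dawley rats that carry a germ cell-specific green fluorescent protein (genotype GFP-GCS), and were sorted by flow cytometry before capture bisulfite sequencing. The 5 groups were control males (4 samples), control females (3), high-fat diet (HFD) males (4) and HFD females (3) at gestational day (GD) 16, and control males at GD18 (4). Control dams took 18% of energy from fat and HFD dams 45%, from GD0 on, with 5 dams in each diet group. The labels tie no sample to a litter, and they leave unsaid where the re-analysed samples of the design text belong. The tables hold methylation only, so the sorted cell type could not be checked against the expression of its markers. Every level below is the authors' group mean, and the labels do not say whether it was taken over samples, CpGs or reads. Its spread between animals and its read depth are unknown, so no error is given and no test between groups was made. A region is called higher or lower in a group where the authors listed it, and listed regions differ by at least 10 percentage points with a false discovery rate (FDR) of at most 0.05. The unit of the authors' test is not known, so their FDR is not read as a test between animals.

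Imprinted genes carry methylation on one parental allele at a control region, set down in the egg or the sperm. Primordial germ cells erase these marks together with most other methylation, and each sex then lays down its own, males before birth and females in growing oocytes after birth. In the mouse the control regions of Plagl1, Nap1l5, the short Inpp5f variant and the Grb10 cluster that holds Ddc are methylated in the egg, and those of Dlk1 and Rasgrf1 in the sperm. Sfmbt2 is imprinted mainly in the placenta there. Plagl1 encodes a zinc finger transcription factor, and Sfmbt2 a Polycomb group protein that the mouse placenta needs. Nap1l5 belongs to the nucleosome assembly proteins, Inpp5f is a phosphoinositide phosphatase, and Ddc makes dopamine and serotonin from their amino acid precursors. Dlk1 is a membrane protein related to Notch ligands that holds back fat cell differentiation, and Rasgrf1 activates Ras in neurons.

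At 2 of these genes, Plagl1 and Nap1l5, the listed regions reached the CpG-rich start of the gene, and the promoter windows are shown for that reason. They come from RefSeq (build GRCr8) and run from 250 bases before to 50 after a gene start, on the gene's own strand, with each CpG in capitals. The Plagl1 window is chr1:9297214-9297513 on the plus strand, and the Nap1l5 window chr4:89354655-89354954 on the minus strand. The sources used here name no build for the deposited coordinates, so a region cannot be placed on these letters, and the start in RefSeq need not be the one the authors used.
Plagl1: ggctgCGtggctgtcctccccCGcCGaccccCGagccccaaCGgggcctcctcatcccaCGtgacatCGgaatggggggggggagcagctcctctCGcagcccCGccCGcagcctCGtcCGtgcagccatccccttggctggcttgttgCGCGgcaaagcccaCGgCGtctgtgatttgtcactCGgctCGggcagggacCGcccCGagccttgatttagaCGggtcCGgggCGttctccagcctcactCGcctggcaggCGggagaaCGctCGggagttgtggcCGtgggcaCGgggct
Nap1l5: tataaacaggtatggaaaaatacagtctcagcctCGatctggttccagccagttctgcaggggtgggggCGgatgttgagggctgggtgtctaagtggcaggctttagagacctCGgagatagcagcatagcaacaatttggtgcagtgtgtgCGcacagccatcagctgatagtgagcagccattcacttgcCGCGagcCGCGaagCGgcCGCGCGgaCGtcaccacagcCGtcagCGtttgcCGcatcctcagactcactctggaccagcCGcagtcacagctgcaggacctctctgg

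The Plagl1 window holds 29 CpGs, a number reached by 11.5% of the 33469 windows in the table, and the Nap1l5 window 17, which 29.0% reach. Dlk1 has 45 CpGs and Rasgrf1 23 in their windows, Inpp5f 15, Sfmbt2 3, and the 3 windows of Ddc 2 to 5, against a median of 7 over all windows. The letters TGCCGC, which the mouse imprint protector Zfp57 binds when methylated, were searched on both strands, and each match includes 1 CpG. Plagl1 holds them once, on the reverse strand from base 151, and Nap1l5 holds them 2 times, from bases 191 and 242. They are also found once in the Dlk1 window (from base 213) and once in the Rasgrf1 window (from base 256). Of all windows 11.7% hold these letters and 1.57% hold them 2 times or more. A match describes the letters and is not a binding site.

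Between control males and control females at GD16, 41 regions of 6 genes were listed, and each of the 41 was higher in males. Across all genes 99.7% of the 48127 listed regions were higher in males, so this direction is that of the whole table. The authors' deposited table gave the 41 regions a median of 19.1% in males (range 13.5 to 35.6%) and of 4.6% in females (range 1.8 to 10.6%). All listed regions had medians of 19.6 and 4.7%. The median difference of 14.3 points equalled that over all listed regions, and 5 of the 41 (12.2%) differed by at least 20 points, where 17.4% of all listed regions did. Of 8243 genes 94.9% had a region here, against 6 of the 7 genes described, with Nap1l5 as the exception. The authors' FDR ran from 1.23e-14 to 0.0245 over the 41 regions in the authors' deposited table.

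**Figure D1:**
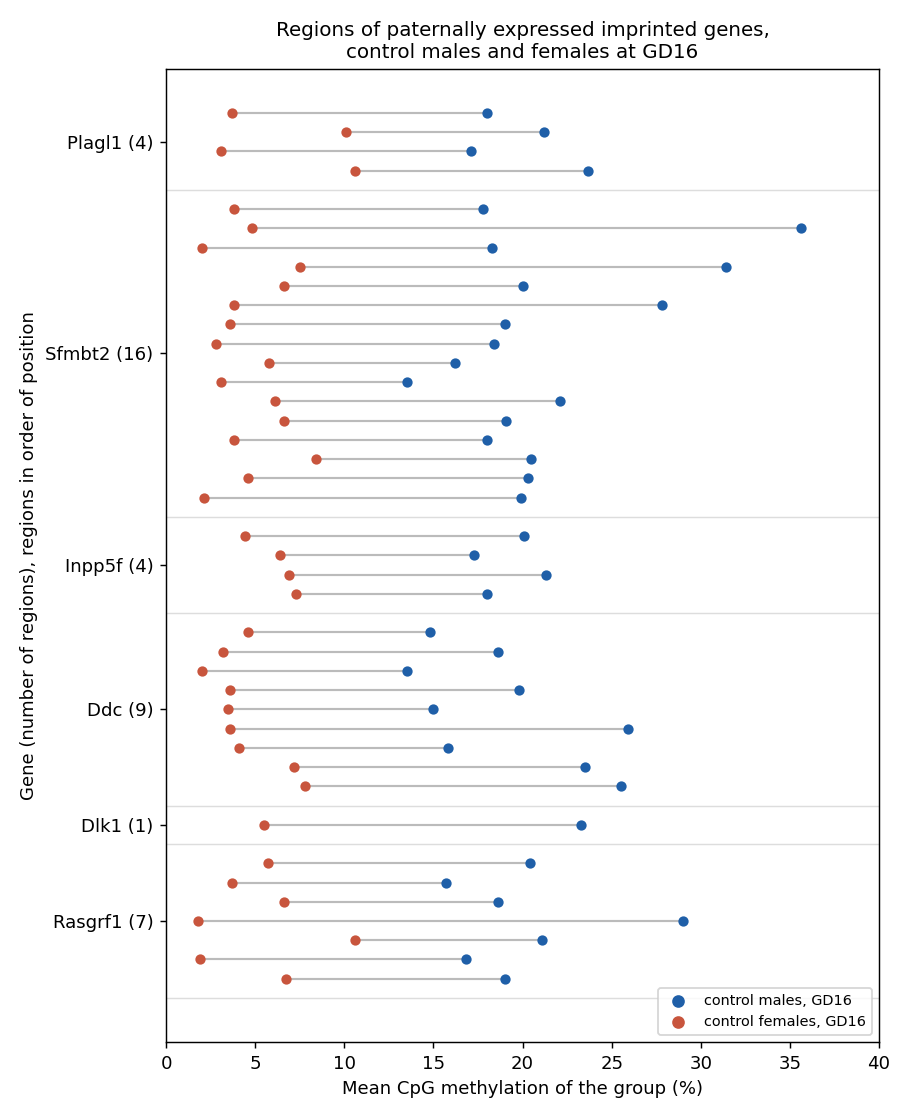
Each line is 1 of the 41 regions listed between control males (blue) and control females (red) at GD16, in order of position within each gene. The horizontal axis gives the authors' group mean of CpG methylation in percent. Males lie between 13.5 and 35.6% and females between 1.8 and 10.6%.

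Sfmbt2 held 16 of the 41 regions, all in introns, spread over 148.7 kb of chromosome 17. The largest difference among the 7 genes lay there (71726059 to 71726199, 6 CpGs), with 35.6% in males and 4.8% in females, per the authors' deposited table. Within Sfmbt2 it was followed by 2 regions with nearly equal differences. The one at 71766694 to 71767020 had 27.8% against 3.8% in the authors' deposited table. The one at 71755382 to 71756224, which the annotation places in a B4 SINE repeat, had 31.4% against 7.5% in the authors' deposited table. The other 13 Sfmbt2 regions stayed between 13.5 and 22.1% in males and between 2.0 and 8.4% in females, per the authors' deposited table. When regions less than 10 kb apart were joined, 9 of the 16 formed a group from 116.4 to 136.6 kb after the first one, with 13.5 to 22.1% in males. The 3 regions between 30.7 and 42.4 kb reached 20 to 31.4% in males in the authors' deposited table. Sfmbt2 reads along the minus strand in RefSeq (GRCr8). If the same holds in the unnamed build of the deposited coordinates, the 9-region group lies toward its start.

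Ddc held 9 regions over 88.4 kb of chromosome 14, and males ranged from 13.5 to 25.9% and females from 2.0 to 7.8%, per the authors' deposited table. Its most different region was intronic (91941141 to 91941248, 8 CpGs), with 25.9% in males and 3.6% in females, per the authors' deposited table. The promoter region of Ddc (91996686 to 91997363, 6 CpGs) had 25.5% against 7.8%, and its 3' UTR (91908961 to 91909117) 14.8% against 4.6%, per the authors' deposited table. The promoter thus stood among the more methylated Ddc regions in males and was the most methylated one in females.

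Plagl1 held 4 regions on chromosome 1. At its 5' UTR (7219597 to 7219842) 28 CpGs had 18.0% in males and 3.7% in females, per the authors' deposited table. This was the listed region with the most CpGs among the 7 genes, at 11.38 CpGs per 100 bp against a median of 2.17 over the 41. Toward the other end of the gene, an exon (7254453 to 7255097, 22 CpGs) had 23.7% against 10.6% in the authors' deposited table. The introns at 7251397 to 7251814 and at 7253002 to 7253451 had 21.2% against 10.1% and 17.1% against 3.1% in the authors' deposited table. Inpp5f held 4 regions within 8.3 kb of chromosome 1, at 17.3 to 21.3% in males and 4.4 to 7.3% in females, per the authors' deposited table. One of them was an exon (200115048 to 200115351), with 18.0% against 7.3% in the authors' deposited table. Inpp5f had the narrowest range of male levels among the genes with several regions.

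The genes with a sperm mark in the mouse, Dlk1 and Rasgrf1, were also higher in males at each listed region. With 99.7% of all listed regions in that direction, no comparison with the other genes is read from it. Dlk1 had a single region, in an exon (chromosome 6, 133583156 to 133583571, 6 CpGs), with 23.3% in males and 5.5% in females, per the authors' deposited table. Rasgrf1 had 7 regions over 82.2 kb of chromosome 8, at 15.7 to 29.0% in males and 1.8 to 10.6% in females, per the authors' deposited table. An intronic region (97360384 to 97360955, 7 CpGs) led with 29.0% against 1.8%, and the 3' UTR (97404720 to 97405156) had 19% against 6.7%, per the authors' deposited table. No test of a difference between genes was made.

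By annotation, 34 of the 41 regions were intronic (82.9%, against 72.6% of all listed regions with a gene symbol), 3 were exonic and 2 lay in a 3' UTR. The remaining ones were the 5' UTR of Plagl1 and the promoter of Ddc. The median region had 7 CpGs over 437 bp, against 9 CpGs over 442 bp in the whole table.

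Between HFD and control males at GD16, 11 regions of 6 genes were listed, 10 of them lower on HFD and 1 higher. Falls made up 74.0% of the 10084 regions of this table, so a majority of falls is not particular to these genes. The authors' deposited table gave the 10 falls a median of 8.9% on HFD and of 21.9% on control diet, where all listed falls had 10.3 and 25.2%. The median difference of the 10 falls was -11.1 points, against -13.5 points over all listed falls. Most differences were small, with 7 of 11 below 12 points (63.6%, against 31.3% of all listed regions) and 3 of 11 at 20 points or more (27.3%, against 26.5% of all listed regions). Of 8243 genes 35.6% had a region in this table, and of the 1669 genes with at least 4 regions between the control sexes 67.2% did. Among the 7 genes 6 had one, including each of the 5 with at least 4 regions between the control sexes.

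**Figure D2:**
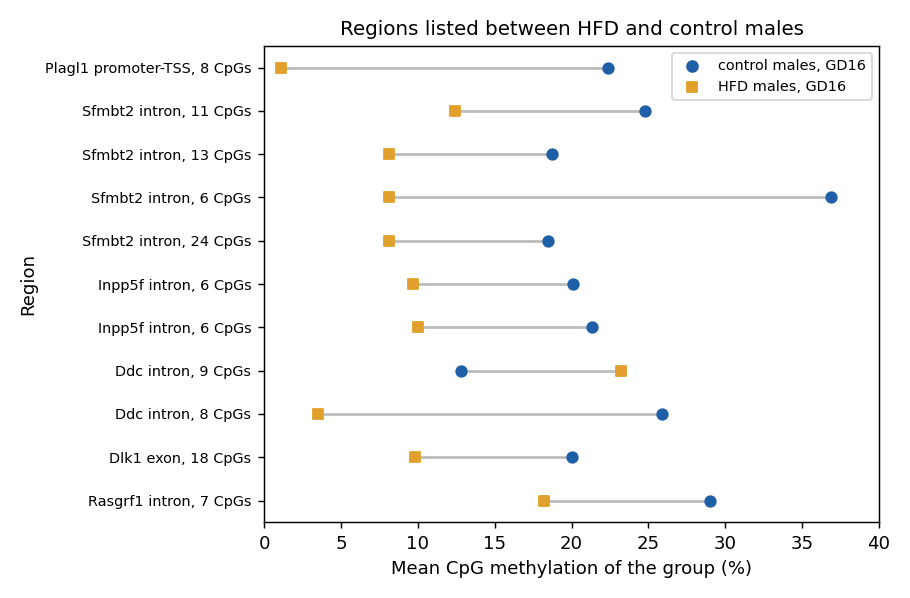
The 11 regions listed between HFD (yellow squares) and control males (blue points) at GD16, with the authors' group means of CpG methylation in percent on the horizontal axis. HFD lies to the left in 10 regions, and to the right in 1 intron of Ddc (23.2 against 12.8%).

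The 3 falls of at least 20 points lay in Sfmbt2, Ddc and Plagl1. An Sfmbt2 intron (chromosome 17, 71843190 to 71843295, 6 CpGs) had 8.1% on HFD and 36.9% on control diet, the highest control male level among all regions of the 7 genes in the authors' deposited table. It is 34 bp away from a listed region in which control males had 18.4% in the authors' deposited table. These 2 levels come from different tables, in which the CpGs used need not be the same, so no change with distance is read from them. The Ddc intron at 91941141 to 91941248 had 3.5% on HFD and 25.9% on control diet in the authors' deposited table. The promoter of Plagl1 (chromosome 1, 7219597 to 7219655, 8 CpGs) had 1.1% against 22.4%, the lowest HFD level of the 11, in the authors' deposited table.

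The other falls had control male levels of 18.5 to 29.0% and HFD levels of 8.1 to 18.2% in the authors' deposited table. The other Sfmbt2 falls, in introns, went from 24.8 to 12.4% (11 CpGs), from 18.7 to 8.1% (13 CpGs) and from 18.5 to 8.1% (24 CpGs), per the authors' deposited table. Inpp5f fell in 2 introns, from 20.1 to 9.7% and from 21.3 to 10%, per the authors' deposited table. Dlk1 fell in its exon from 20% to 9.8% over 18 CpGs (133583126 to 133583457) and Rasgrf1 in an intron from 29.0 to 18.2%, per the authors' deposited table. Rasgrf1 thus kept the highest HFD level among the falls. The one rise, in a Ddc intron (91915844 to 91916198, 9 CpGs), went from 12.8 to 23.2% in the authors' deposited table. It lies 24.9 kb from the Ddc fall and 3.1 kb from the nearest Ddc region listed between the sexes.

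The diet comparison and the sex comparison use the same control males, so a high mean of that group enters both, and levels at shared stretches are given side by side only. Of the 11 regions 8 overlap one of the 41 (72.7%), and 4 have the same coordinates (36.4%). Of all regions in the diet comparison, 57.5% overlap one of the sex comparison and 11.4% share its coordinates, and with 11 regions nothing particular is read from these shares. At the 4 with the same coordinates, control males had the same level in both tables. There the authors' deposited tables gave Inpp5f 4.4% in control females, 20.1% in control males and 9.7% in HFD males at 200107058 to 200107317. At 200113504 to 200113852, also in Inpp5f, the 3 levels were 6.9, 21.3 and 10% in the authors' deposited tables. The Ddc intron had 3.6, 25.9 and 3.5%, and the Rasgrf1 intron 1.8, 29.0 and 18.2%, in the same order in the authors' deposited tables. HFD males thus lay near control females in Ddc and between the 2 control groups in Rasgrf1 and Inpp5f. No deposited table compares HFD males with control females.

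**Figure D3:**
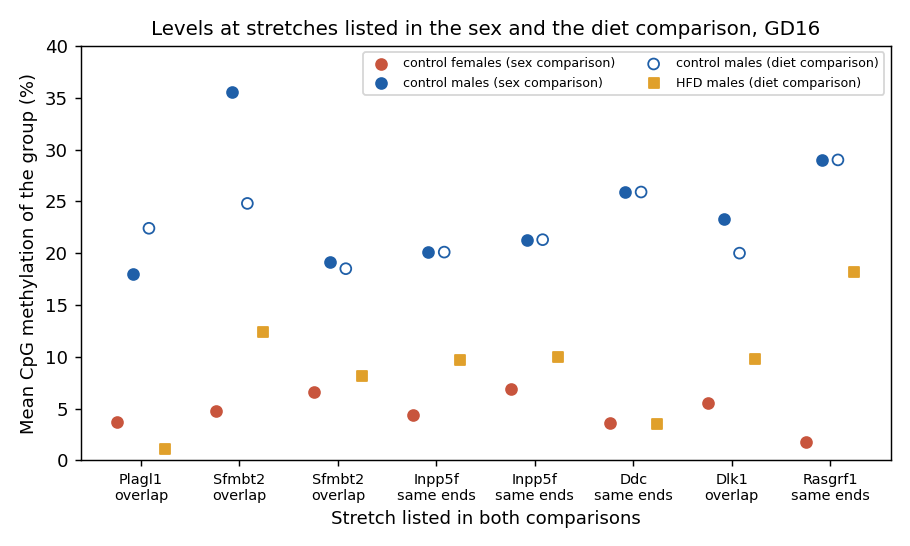
Authors' group means of CpG methylation (percent, vertical axis) at the 8 stretches listed in both comparisons at GD16, for control females (red), control males in each table (filled and open blue) and HFD males (yellow squares). Where the ends are the same the 2 control male values coincide, as at Rasgrf1 (29.0%), and where regions only overlap they differ, as at Sfmbt2 (35.6 and 24.8%).

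Where regions overlapped without sharing their ends, the control male means differed between tables. The first Sfmbt2 stretch had 35.6% over 6 CpGs in the sex comparison and 24.8% over 11 CpGs in the diet comparison, per the authors' deposited tables. At the Dlk1 exon the regions share 302 bp, yet the authors' deposited tables count 6 CpGs in the longer one (416 bp) and 18 in the shorter one (332 bp). The number of CpGs used was therefore not the same in the 2 comparisons, and the Dlk1 means of 23.3 and 20% for control males in the authors' deposited tables rest on different sites. Along Sfmbt2 the 4 falls lay in 2 places, 2 of them near its first listed regions and 2 in the 9-region group. None was listed at the 3 regions between 30.7 and 42.4 kb or at the last region, from 148.2 kb. Control males had up to 31.4% at the former and 19.9% at the latter in the authors' deposited table. Most regions of the 9-region group overlapped no fall either.

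**Figure D4:**
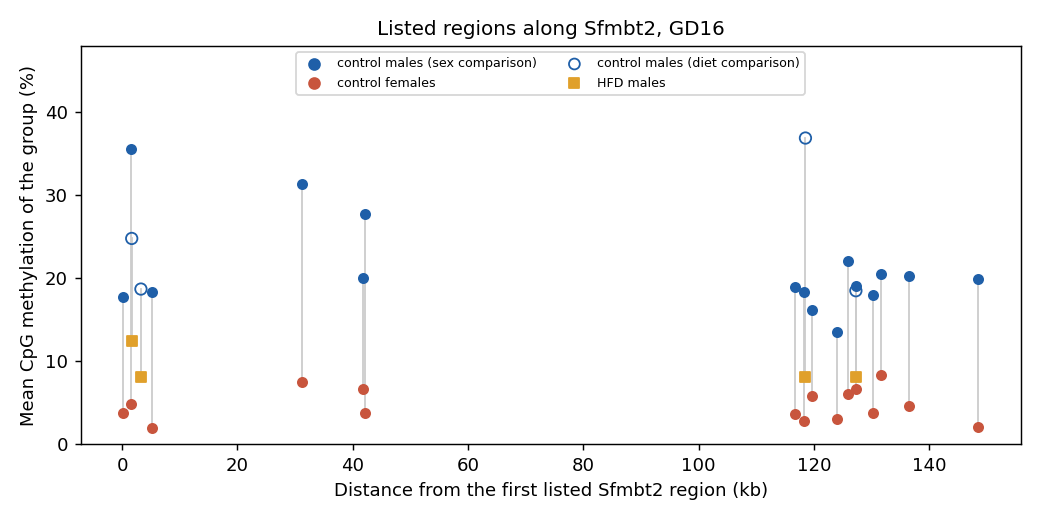
Listed regions of Sfmbt2 by distance in kb from the first one (horizontal axis), with the authors' group means in percent (vertical axis). Filled points are control males (blue) and control females (red) of the sex comparison, open points control males and squares HFD males of the diet comparison. The open point at 36.9% and the square at 8.1% mark the largest fall on HFD.

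Between HFD and control females at GD16 none of the 1832 listed regions, of which 71.7% were lower on HFD, belonged to the 7 genes, where 8.37% of 8243 genes had one (18.3% of the genes with at least 4 regions between the control sexes). Control females were below 10% at 38 of the 41 regions above in the authors' deposited table. The other 3 had 10.1 to 10.6% in control females in the authors' deposited table, in a Plagl1 intron, a Plagl1 exon and a Rasgrf1 intron. At the Plagl1 and Nap1l5 regions of the GD18 comparison, control females had 22.3 and 12.8% in the authors' deposited table. Rises on HFD were listed at 519 of the 1832 regions, with a median of 2.0% in control females. Why no region of the 7 genes was listed, and whether the diet acted differently in the 2 sexes, was not tested.

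When control males of GD18 were set against control females of GD16, where day and sex differ together, 2 regions were listed, both lower in GD18 males. Across all genes 92.5% of the 1618 regions were lower there, and 7.50% of 8243 genes had a region. At GD16, 99.7% of the 48127 regions listed against the same control females were higher in males. None of the 41 regions listed there for the 7 genes was listed for GD18 males, so their GD18 levels are not known. How many regions of all genes were listed in both comparisons was not counted. In Plagl1 (7219929 to 7219971, 8 CpGs over 43 bp, annotated as CpG island within an intron) GD18 males had 2.5% and GD16 females 22.3% in the authors' deposited table. At the Nap1l5 promoter (chromosome 4, 89151745 to 89151864, 5 CpGs) GD18 males had 2.3% and GD16 females 12.8% in the authors' deposited table, with an FDR of 0.0431. That is the sole listed region of Nap1l5, and it lies 2.0 kb from an intronic region of Herc3, the gene that surrounds Nap1l5 in the mouse. At the Herc3 region control males at GD16 had 19.5% and control females 4.6% in the authors' deposited table.

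The start of Plagl1 was the one stretch of the 7 genes with a region in 3 tables, within 375 bp. Over its first 59 bp HFD males had 1.1% and control males 22.4%, and over its first 246 bp control males had 18.0% and control females 3.7%, per the authors' deposited tables. Another 86 bp on, control females had 22.3% and GD18 males 2.5% over 43 bp in the authors' deposited table. The control female means of 3.7 and 22.3% at these neighbouring stretches come from different tables. The 43 bp region is shorter than the 50 bp that the design text gives as the minimum of a segment. It shares this with other regions, as 58 in the GD18 comparison and 50 to 180 in each other comparison are shorter than 50 bp. The 43 bp stretch was not listed between the sexes at GD16, so the GD16 control male level there is not known.

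**Figure D5:**
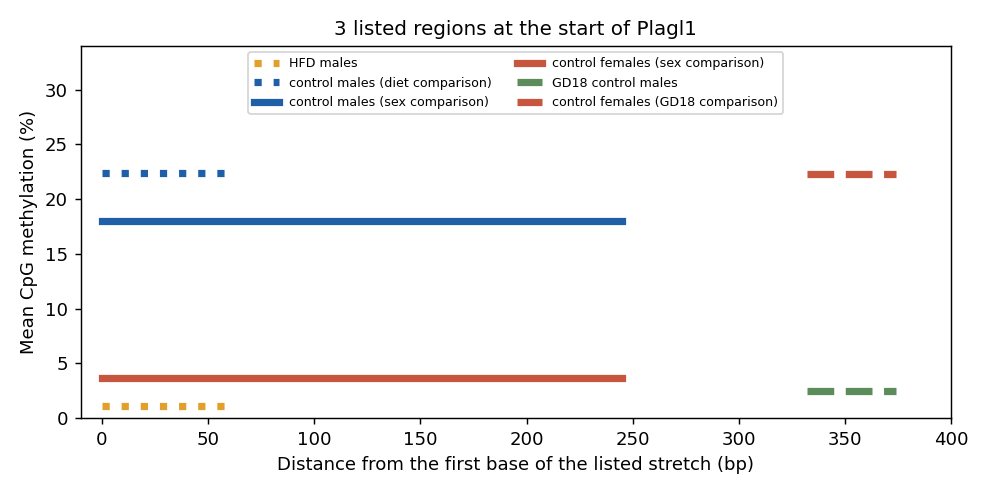
The 3 regions at the start of Plagl1 by distance in bp from their first base (horizontal axis), with the authors' group means in percent (vertical axis). Dotted lines show the diet comparison in males, full lines the sex comparison and dashed lines the GD18 comparison. Control females lie at 3.7% over the first 246 bp and at 22.3% over the last 43 bp.

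The surroundings of the genes were searched to 100 kb on either side of their listed regions, a window chosen after the data were seen. Between the control sexes 28 regions were listed there, all higher in males (as were 99.7% of all listed regions), and 15 of them were intergenic. In the diet comparison of males 4 intergenic regions were listed, 2 higher and 2 lower on HFD, where 74.0% of all listed regions were lower. One lower region beside Ddc (91887566 to 91888042, 5 CpGs) had 2.3% in control females, 29.0% in control males and 13.3% in HFD males in the authors' deposited tables. Another, 98.5 kb beyond Plagl1 (7353621 to 7353787), had 28.9% on control diet and 9.1% on HFD, and a higher one, 57.5 kb before Plagl1 (7161963 to 7162098), went from 23.0 to 36.4% in the authors' deposited table.

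A stretch beside Sfmbt2, 56.9 kb from its first region, was listed in both diet comparisons, in opposite directions. In males (71667341 to 71667725, 7 CpGs) the authors' deposited table gave 4.6% on control diet and 19.3% on HFD. In females (71667386 to 71667725, 7 CpGs) it gave 24.3% on control diet and 0.0% on HFD in the authors' deposited table. The stretch was not listed between the control sexes, and the difference between the diet effects was not tested.

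Between Dlk1 and Meg3, the maternally expressed RNA gene that shares its control region in the mouse, an intergenic region of 514 bp (chromosome 6, 133645334 to 133645847) was listed in 2 tables. HFD females had 1.8% and control females 13.3% over 20 CpGs, and GD18 males had 3.4% and control females 13.9% over 19 CpGs, per the authors' deposited tables. Both comparisons use the same control females. The region lies 61.8 kb from the Dlk1 exon, and the nearest listed Meg3 intron (133659462 to 133660046) had 16.7% in control males and 4.9% in control females in the authors' deposited table. Whether it is the control region of this cluster is not given in the tables.

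Other imprinted genes were counted from lists based mainly on the mouse. As background, 22% of the genes with a transcript in the gene table had a listed region in any comparison, and 35.0% of its protein-coding genes did. These shares were not compared with those of the lists by a test, and gene length was not taken into account. Of 32 further paternally expressed genes 27 were in the gene table, and 8 had a region, or 30.8% of the 26 with a transcript there. The 7 genes described above each have a region and are not in this list. Its share is therefore not that of all paternally expressed genes. The 8 listed genes with a region had 37 regions between the control sexes, all higher in males. Their median difference was 13.8 points, against 14.3 points over all listed regions. The largest lay in an intron of Slc38a4, an amino acid transporter gene (25.3% against 0.7% in the authors' deposited table). In HFD males 4 regions of 3 of these genes were listed and all were lower, with a median of -14.1 points against -13.5 points over all listed falls. Slc38a4 led with 30.2% on control diet and 6.5% on HFD in the authors' deposited table. In HFD females 2 regions were listed, both intronic with 5 CpGs, and they differed by the same amount in opposite directions. The cell survival gene Bcl2l1 went from 6.9 to 38.1%, and the zinc finger gene Zfp64 from 31.2 to 0.0%, per the authors' deposited table. None of these genes had a region in the GD18 comparison, where 7.50% of 8243 genes had one. Across all genes 99.7% of listed regions were higher in control males than in control females, and 74.0% were lower in HFD males.

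Of 41 maternally expressed genes 38 were in the gene table, and 24 of these had a region (63.2%, against 35.0% of all protein-coding genes, not tested). Between the control sexes 77 of their 78 regions were higher in males, with a median difference of 14.9 points, led by Trappc9 (41.4% against 2.8% in the authors' deposited table). In HFD males 11 of 13 regions were lower (median -13.0 points, against -11.9 points over all listed regions), and the largest difference was a rise in an exon of Zim1, a zinc finger gene (0.0 to 25.5% in the authors' deposited table). HFD females had 1 higher and 1 lower region, of which the rise at the transporter gene Slc22a3 (8.8 to 21.3% in the authors' deposited table) was the larger. In the GD18 comparison 3 regions were listed, all lower, led by the neuronal actin-binding gene Ppp1r9a (2.5% against 21.3% in the authors' deposited table). Over all listed regions, 99.7% were higher in males between the control sexes. The shares that were lower were 74.0% in HFD males and 92.5% in the GD18 comparison.

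Among 16 genes chosen as neighbours of the 7, 4 also stand in the maternally expressed list. Of the 16 neighbours 9 had a region (56.2%, against 35.0% of all protein-coding genes, not tested). All 36 of their regions between the control sexes were higher in males (median difference 13.6 points), led by an intron of Begain, a gene near Dlk1 (32.2% against 5.3% in the authors' deposited table). In HFD males 5 of 6 regions were lower, and the largest difference was a rise in an intron of Phactr2, beside Plagl1 (4.8 to 25.8% in the authors' deposited table). HFD females had none, where 8.37% of 8243 genes had a region. Both regions of the GD18 comparison were lower, the larger in an intron of Wdr25 (2.9% against 14.1% in the authors' deposited table). These directions are those of the whole tables, with 99.7% higher in control males, 74.0% lower in HFD males and 92.5% lower in GD18 males.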

How the data were processed

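Methylation was measured in 18 capture bisulfite libraries, but only group-level tables were used here, 4 lists of differentially methylated regions. Per the submitters' processing notes the tools include Bismark 0.19.0 and Bowtie2. For build and annotation nothing is given in the sources used here. Per the file headers, the authors deposited for each region a mean methylation fraction of each group, printed here as percent, and the signed difference of both means as a score. They also deposited a p-value with an FDR and a count of CpGs. Read depth was not used because no file gives it. The deposited lists hold no region under 5 CpGs or under 10 points, and the smaller lists of rises of at least 50 points were not used. Stray brackets were removed from 454 gene identifiers, and 94.1 to 94.7% of the identifiers of each table matched a symbol in RefSeq (GRCr8), used for names, strands and promoter sequences. Regions were counted and summarised with Python 3.11.15, pandas 2.3.3, numpy 2.4.6 and matplotlib 3.10.9, and overlaps needed 1 bp. The counting was tested on simulated regions. Tests planned for values per sample were not made. Genes, lists and naming rules were chosen with earlier results of these data known: all 7 genes are named, with their largest region per comparison, every promoter, 5' UTR, CpG island and exon region, regions listed in several tables, and the largest difference of each further list.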

Additional observations from a re-analysis of the deposited data

How the results depend on the processing

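No paired analysis was possible because the tables give no value per sample, and for the same reason no replicate could be left out. In HFD males, between the control sexes and in the GD18 comparison the majority direction was the same wherever regions remained under these limits, and the counts followed the limits set, since each stricter limit keeps fewer regions by construction. With differences of at least 20 points the regions of the 7 genes numbered 3 in HFD males, 5 between the control sexes and 0 in the GD18 comparison. With at least 10 CpGs they numbered 4, 13 and 0. An FDR of at most 0.01 left 9, 39 and 1, and a minimum of 50 bp left 11, 41 and 1. All lay within the gene or at its promoter, so leaving out intergenic regions removed none. HFD females stayed at 0 throughout. Identical coordinates left 4 of the 8 stretches shared by the diet and sex comparisons, and a reciprocal overlap of at least 50% of each region left 6. Weighting regions by their CpGs gave medians of 8.1% in HFD and 20% in control males of the diet comparison, and of 19% in males and 4.6% in females of the sex comparison. A window of 50 kb, in place of 100 kb, left 16 surrounding regions between the control sexes, 1 in HFD males and 0 in the other comparisons. The unknown depth limits every level.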
